A study of Mus musculus with 24 samples.

Results

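Untransduced P19 cells were profiled in batch 3 and again in batch 1 of the study, and the comparison between these batches is described here. It takes 6 of the 24 arrays of the series, 3 titled P19 control batch 3 and 3 titled P19 control batch 1. P19 is a mouse embryonal carcinoma line, a pluripotent tumour line that can be driven into nerve, muscle and endoderm-like cells. The study put lentiviral NeuroD2 or MyoD, basic helix-loop-helix factors of neurons and of skeletal muscle, into P19 cells and into mouse embryonic fibroblasts (MEFs) from embryos without Myod1 and Myf5, and measured RNA on Affymetrix arrays. Both P19 groups used here carried no virus, and the labels give them the same cell type, undifferentiated P19 cells. P19 cells with NeuroD2 (batch 3) and P19 cells with MyoD (batch 1), 3 arrays each, serve as a further pair of groups. The labels describe the MyoD arrays as neuronally differentiated too, so the titles and source names were used for the groups. P19 cells were kept in MEM-alpha medium, but the labels give no cell density, passage or harvest time for the untransduced cells, with no word on whether each replicate was a culture of its own. P-values therefore measure the spread between arrays, which may be technical. The batch is only a word in the titles, so the state of the culture and the handling of the RNA and arrays cannot be told apart.

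The genes at the centre of the comparison report on oxygen and on glucose use. When oxygen is plentiful, the prolyl hydroxylases Egln1, Egln2 and Egln3 mark the alpha subunits of hypoxia-inducible factor (HIF) for destruction by the Vhl ubiquitin ligase. When oxygen is short, or when the hydroxylases are blocked in another way, HIF alpha pairs with Arnt and switches on genes of glycolysis, lactate export and mitophagy, and also Egln3 and Egln1 themselves. Hif1a itself is controlled mainly through the stability of its protein, which arrays do not measure. Pluripotent cells rely strongly on glycolysis.

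Values are log2 array signals, and 1 unit is a doubling. In the untransduced cells the pluripotency gene Pou5f1 read 13.81, 13.69 and 13.72 in batch 3, against 13.44, 12.98 and 13.50 in batch 1, while its mean in batch 1 MEFs was 4.49. Sox2 (3.87) and Nanog (4.18) were also near the floor in those MEFs, whereas the lowest value in the 6 P19 arrays was 10.76 for Sox2 and 7.32 for Nanog. Pou5f1, Sox2 and Nanog therefore read above their batch 1 MEF means in both batches of P19 cells. Other markers of the line are not shown here.

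Replicate 2 of batch 1 stood apart from the others. Its quartiles lay at 4.79 and 7.63, against 4.47 to 4.58 and 8.23 to 8.40 (lower and upper) in the other 23 arrays, and its BioB hybridisation control read 6.40, against 7.67 to 8.20. It had a mean correlation of 0.919 with the other replicates of its group. In that group 2073 genes read over 2-fold higher and 4000 over 2-fold lower in replicate 2 than the mean of the other replicates. Genes were split into 10 equal bins by level, and in bin 9 the median difference of batch 3 minus batch 1 was 0.29 with all arrays and -0.025 without replicate 2, and in bin 3 it was -0.22 and -0.042. Replicate 1 of batch 3 also stood apart, in a different way: its quartiles (4.54 and 8.29) lay within the range of the others, but 126 genes read over 2-fold higher and 502 over 2-fold lower than in the other batch 3 replicates. The 3' minus 5' signal of the actin control, a sign of RNA integrity, was 0.26, 0.23 and 0.21 in batch 3, against 0.36, 0.41 and 0.36 in batch 1. That of the Gapdh control lay the other way, at -0.134, -0.1 and -0.121 in batch 3, against -0.205, -0.193 and -0.17 in batch 1.

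**Figure D1:**
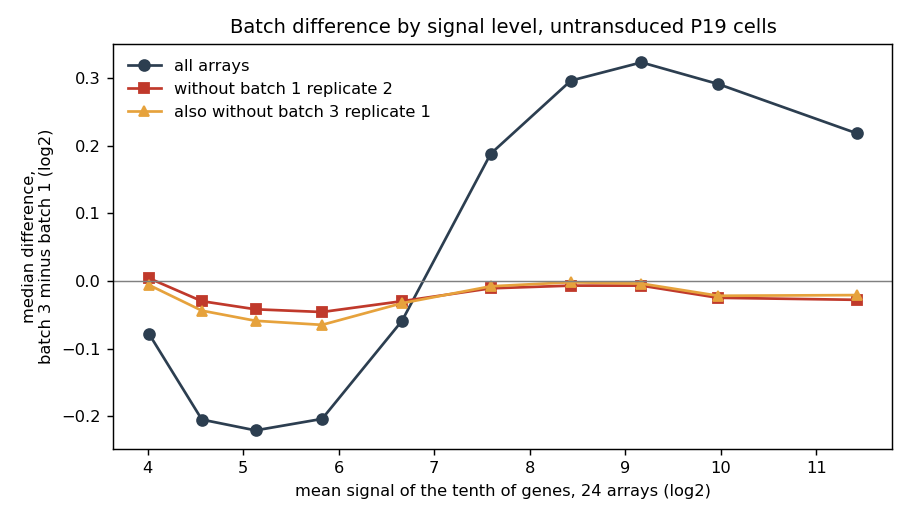
Median log2 difference of batch 3 minus batch 1 in untransduced P19 cells (y axis) for 10 equal bins of the 18193 genes ordered by mean log2 signal (x axis), in the fit to all arrays, without batch 1 replicate 2, and also without batch 3 replicate 1. With all arrays the median runs between -0.22 and 0.32 with level, and without batch 1 replicate 2 it stays between -0.046 and 0.004.

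With all 24 arrays in 1 limma fit, 1936 of 18193 genes were called higher (10.6%) and 633 lower (3.48%) in batch 3 at an adjusted p under 0.05. Without batch 1 replicate 2 the balance turned, with 1508 genes higher (8.29%) and 1663 lower (9.14%). Without batch 3 replicate 1 there were 1318 higher (7.24%) and 350 lower (1.92%), and without both arrays 1714 (9.42%) and 1793 (9.86%). A core of 954 genes was called higher (5.24%) and 229 lower (1.26%) in all 4 of these fits, and "called in all 4 fits" below means this core. The calls draw their spread from all 8 groups of the series. When the fit held only the 6 untransduced P19 arrays, 1 gene passed, Slc16a3 (adjusted p = 0.0312), and 0 were lower, with 867 higher and 224 lower at an unadjusted p under 0.05. With 5 of these arrays alone, leaving out batch 1 replicate 2, 152 were higher and 62 lower, and with 4 alone 1565 and 1593.

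The promoters of Egln3, Ankrd37 and Slc16a3, the genes of the oxygen response that differed most with all arrays, are shown because HIF binds a short core, ACGTG or GCGTG, on either strand. They are RefSeq sequences of build GRCm38.p6, read along the gene from 250 bases before its start to 50 after, with each match to the core in capitals.
Egln3 (chr12:54203825-54204124, minus strand): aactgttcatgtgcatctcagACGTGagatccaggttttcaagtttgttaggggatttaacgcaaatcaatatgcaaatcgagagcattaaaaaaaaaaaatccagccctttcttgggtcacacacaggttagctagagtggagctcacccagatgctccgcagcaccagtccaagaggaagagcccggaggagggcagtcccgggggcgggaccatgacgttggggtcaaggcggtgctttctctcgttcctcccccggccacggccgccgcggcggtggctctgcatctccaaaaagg
Ankrd37 (chr8:45999801-46000100, minus strand): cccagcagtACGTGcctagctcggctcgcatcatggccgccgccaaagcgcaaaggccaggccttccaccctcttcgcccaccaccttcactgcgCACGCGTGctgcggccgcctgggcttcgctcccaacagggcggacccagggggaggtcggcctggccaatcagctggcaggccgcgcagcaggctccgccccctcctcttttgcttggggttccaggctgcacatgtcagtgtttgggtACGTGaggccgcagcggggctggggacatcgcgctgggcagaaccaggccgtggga
Slc16a3 (chr11:120948817-120949116, plus strand): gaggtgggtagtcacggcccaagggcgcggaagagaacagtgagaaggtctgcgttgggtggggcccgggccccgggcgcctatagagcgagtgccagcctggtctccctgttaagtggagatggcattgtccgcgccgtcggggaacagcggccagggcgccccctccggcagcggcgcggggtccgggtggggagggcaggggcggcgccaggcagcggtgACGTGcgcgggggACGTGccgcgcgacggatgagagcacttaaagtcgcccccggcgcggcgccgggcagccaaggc
Egln3 held 1 match, Ankrd37 4, of which 1 pair overlaps, and Slc16a3 2, both just before the start. Such letters are common: 43.8% of 27025 promoters in the table held a match, as did 55.6% of 14452 promoters of genes tested here. Among the genes of the 4 oxygen and glucose lists used below, 28 of 36 promoters of members called higher in all 4 fits held a match (77.8%), against 44 of 58 of the other members (75.9%). The shares were close, and a match describes letters, not binding.

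Of the oxygen sensors, Egln3 and Egln1 were higher in batch 3. Egln3 read 10.07, 9.44 and 9.60 in batch 3, against 7.52, 5.77 and 7.63 in batch 1, a difference of 2.73 ± 0.34 (SE), or 6.63-fold (adjusted p = 2.58e-05). Without batch 1 replicate 2 it was 4.36-fold (adjusted p = 2.53e-06). Every batch 3 array lay above every batch 1 array, which the rule for the largest rises required of Egln3. The other Egln3 probe set was called the same way. Egln1 read 9.71, 9.52 and 9.62 in batch 3, against 8.66, 7.66 and 8.70 in batch 1 (difference 1.28, adjusted p = 0.000365; 0.94 without batch 1 replicate 2, adjusted p = 0.000108). The groups again did not overlap, but the share of all genes without overlap was not counted, here or below. Egln2, the hydroxylase that is not known as a strong HIF target, read 9.98, 9.90 and 9.91 in batch 3, against 10.03, 9.82 and 9.91 in batch 1 (difference 0.01, adjusted p = 0.942). Hif1a mRNA was high in every array, 12.05, 12.22 and 12.16 in batch 3, against 12.16, 11.28 and 12.14 in batch 1. Its difference of 0.28 (adjusted p = 0.185) came down to -0.006 (adjusted p = 0.974) without replicate 2. Vhl did not pass with all arrays (-0.07, adjusted p = 0.777) but was called lower without that array (-0.35, adjusted p = 0.00463). Arnt, the partner of the alpha subunits, was higher in all 4 fits (0.96 with all arrays, adjusted p = 0.00763; 0.53 without replicate 2, adjusted p = 0.00206). Of 18 genes of oxygen sensing, 8 were called higher (44.4%, against 10.6% of all genes) and 0 lower with all arrays. Without replicate 2, 3 were higher and 2 lower, where 8.29% and 9.14% of all genes were called, and the 3 called in all 4 fits were Egln3, Egln1 and Arnt. The calls of Epas1, Hif3a, Siah2, Cul2 and Eloc ended without that array.

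With all arrays most HIF target genes measured were called higher in batch 3, but fewer were without batch 1 replicate 2. Of 54 genes, 30 were called higher and 1 lower with all arrays (55.6% higher, against 10.6% of all genes), with a median difference of 0.72, against 0.025 for all genes. Without batch 1 replicate 2, 25 were higher and 0 lower, where 8.29% and 9.14% of all genes were called. The median was then 0.41, against -0.023 for all genes. In all 4 fits 23 were higher, as were 5.24% of all genes. Ankrd37, an ankyrin repeat gene used as a marker of HIF activity, read 9.12, 7.99 and 8.07 in batch 3, against 5.62, 5.86 and 6.01 in batch 1. That is 5.91-fold with all arrays (adjusted p = 4.45e-06) and 5.98-fold without replicate 2 (adjusted p = 9.22e-06). Replicate 1 was the highest of the batch 3 arrays, and without it the difference was 2.20, against 2.56 with all arrays. Ndrg1, a hypoxia-induced gene of differentiation and growth arrest, read 10.20, 9.81 and 9.98 in batch 3, against 7.75, 7.49 and 7.82 in batch 1 (difference 2.31 ± 0.12, adjusted p = 1.49e-10). Its 4 other probe sets were all called higher as well. Zfp395, a zinc finger gene, read 8.46, 8.55 and 8.60 in batch 3, against 6.61, 6.88 and 6.61 in batch 1 (1.84, adjusted p = 7.76e-09). For Ndrg1 and Zfp395 batch 1 replicate 2 lay close to its partners, and the differences without it were 2.21 and 1.93.

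Other HIF targets covered several branches of the response. Bnip3, which marks mitochondria for removal, read 11.79, 11.81 and 11.80 in batch 3, against 10.48, 9.40 and 10.47 in batch 1 (1.68, and 1.33 without replicate 2). P4ha1, a collagen prolyl hydroxylase, read 10.11, 9.93 and 9.97 in batch 3, against 8.58, 7.44 and 8.53 in batch 1 (1.82, and 1.45 without replicate 2). Stc1, a secreted glycoprotein hormone, differed by 2.21 (adjusted p = 3.72e-06) and by 1.92 without replicate 2. In these 3 genes the groups did not overlap, with no share of all genes to set beside this. Among the HIF targets were also 4 called genes of glycogen handling, which were not a list of their own: Gbe1, the branching enzyme (1.74, adjusted p = 0.000143), Pgm1, which links glycogen to glycolysis (1.39, adjusted p = 6.79e-08), and Gys1, glycogen synthase (0.54, adjusted p = 0.018). Ppp1r3c, a glycogen-targeting phosphatase subunit, was 0.99 higher (adjusted p = 0.00307). All 4 were called in all 4 fits. The circadian and repressor genes Bhlhe40 (1.78) and Rora (1.46), the Myc antagonist Mxi1 (1.10), the histone demethylases Kdm4b (1.07) and Kdm3a (0.95), the mTOR inhibitor Ddit4 (0.80) and the mitochondrial proteins Fam162a (1.29) and Higd1a (1.09) were likewise called in all 4 fits.

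Some familiar targets did not pass. Vegfa, the angiogenic factor, read 9.25, 9.31 and 9.53 in batch 3, against 9.71, 8.49 and 9.62 in batch 1 (0.09, adjusted p = 0.797), and it was named after its values were seen. Without batch 1 replicate 2, its lowest array, the Vegfa difference turned to -0.304. Angptl4 was the 1 target called lower (-0.74, adjusted p = 0.0307), a call that rested on batch 1 replicate 2 (-0.40 without it, adjusted p = 0.115). The calls of Plod2, Kdm4c, Lox, Igfbp3 and Mif also ended without that array.

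Enzymes of glycolysis were higher as well. Of 18 measured, 11 were called higher and 0 lower with all arrays (61.1% higher, against 10.6% of all genes), and the same 11 were called in all 4 fits, as were 5.24% of all genes. The median difference was 0.77, and 0.53 without batch 1 replicate 2. Pfkl, the liver-type phosphofructokinase that commits sugar to glycolysis, read 12.64, 12.39 and 12.67 in batch 3, against 10.80, 9.89 and 10.72 in batch 1, or 4.28-fold (adjusted p = 4.26e-08), and 3.50-fold without replicate 2 (adjusted p = 8.09e-11). Eno2, the enolase best known from neurons, read 9.95, 9.43 and 9.73 in batch 3, against 7.89, 6.06 and 7.93 in batch 1 (2.41, and 1.79 without replicate 2). The groups were apart in both genes, which the rule for the largest rises required of Eno2. Aldoa, aldolase, read 13.38, 13.46 and 13.52 in batch 3, against 12.25, 11.59 and 12.24 in batch 1 (1.43, adjusted p = 3.14e-07). Ldha, which turns pyruvate into lactate, read 13.35, 12.78 and 12.99 in batch 3, against 12.16, 11.47 and 12.02 in batch 1 (1.15 ± 0.15, adjusted p = 4.7e-05). Aldoc, counted among the HIF targets, differed by 1.87, but its other probe set by 0.151 (adjusted p = 0.342). Also called higher were Pfkfb3 (1.55), Tpi1 (1.21), Hk1 (1.02), Pkm (0.81), Pfkm (0.77), Pgk1 (0.77) and Pgam1 (0.70). Of the 11 called enzymes 7 were read by probe sets whose type can match several transcripts (names ending in _s_at, _x_at or _a_at), and without such probe sets 5 of the 11 were still measured and 4 of these called. The exception was Pfkl, whose remaining probe set gave 0.16 (adjusted p = 0.423). Hk2, a hexokinase named after its values were seen, did not pass (0.18, adjusted p = 0.393).

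**Figure D2:**
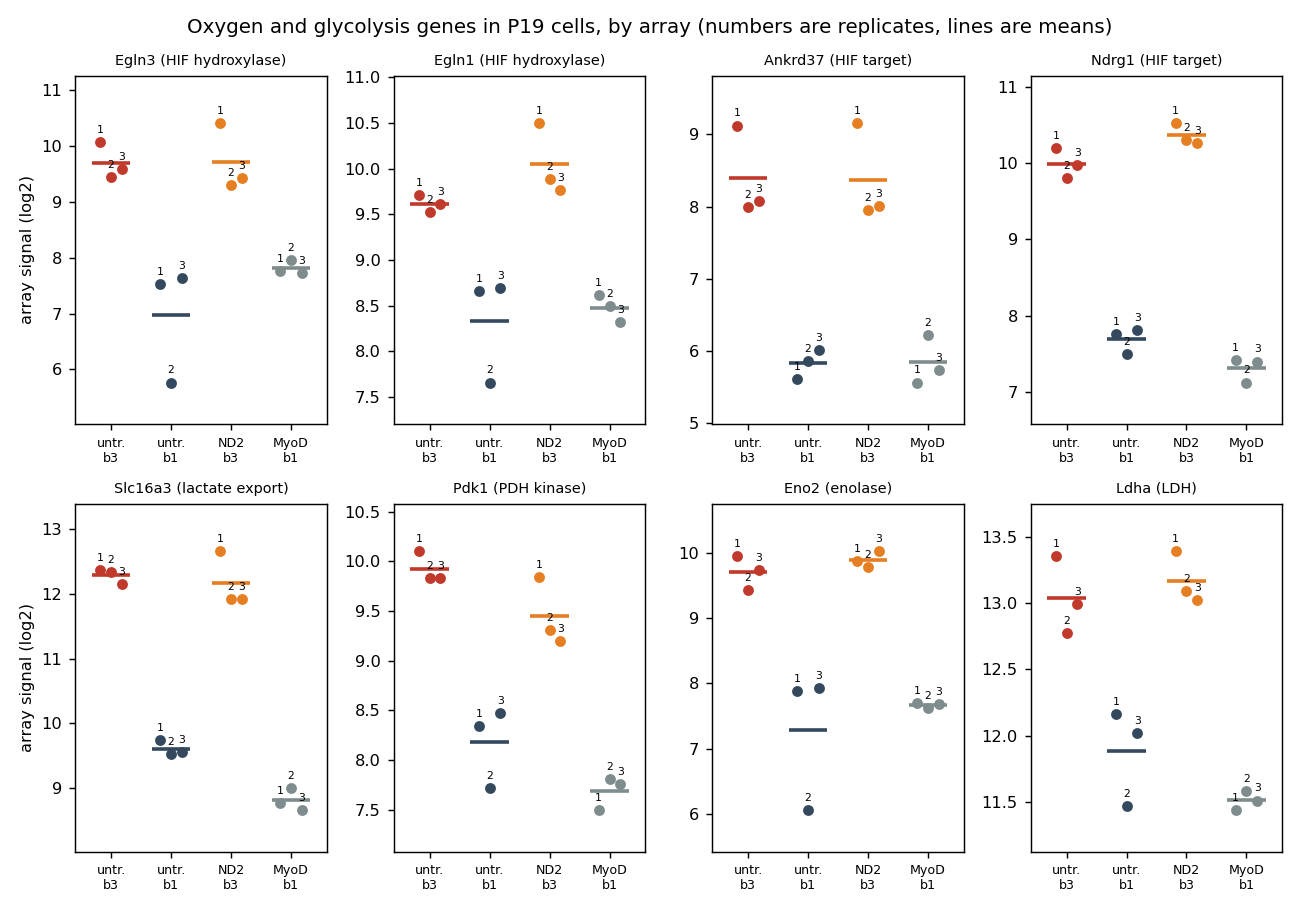
Log2 array signal (y axis) of 8 oxygen and glycolysis genes in untransduced P19 cells of batch 3 and batch 1 and in P19 cells with NeuroD2 (ND2, batch 3) and MyoD (batch 1). Points are arrays marked with their replicate number, and lines are group means. In each panel the 3 batch 3 arrays of a pair lie above the 3 batch 1 arrays. Egln3, Ankrd37, Ndrg1, Slc16a3 and Eno2 are among the largest rises, whose rule required this of the untransduced groups.

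Among transporters and mitochondrial gates, lactate export stood out. Slc16a3, the lactate and proton exporter MCT4, read 12.37, 12.33 and 12.15 in batch 3, against 9.74, 9.53 and 9.56 in batch 1. The difference was 2.68 ± 0.19 (6.39-fold, adjusted p = 1.87e-08), and it stayed between 2.59 and 2.68 in the 4 fits. Bsg, the chaperone that brings such transporters to the membrane, read 12.47, 12.43 and 12.52 in batch 3, against 11.89, 11.51 and 12.01 in batch 1 (0.67, adjusted p = 0.000221). Pdk1, the kinase that closes pyruvate dehydrogenase and so keeps pyruvate out of mitochondria, read 10.11, 9.83 and 9.83 in batch 3, against 8.34, 7.72 and 8.48 in batch 1 (1.74, adjusted p = 1.57e-06). All 3 other Pdk1 probe sets were called higher. Over the 57 called members of the 4 oxygen and glucose lists, 42 of 71 other probe sets were called the same way, 0 the opposite way and 29 were not called. Glucose uptake genes moved less. Slc2a1 differed by 0.58 (adjusted p = 0.029) and by 0.34 without batch 1 replicate 2 (adjusted p = 0.0977). Slc2a3, read at 13.67, 13.82 and 13.80 in batch 3 and 13.62, 12.96 and 13.55 in batch 1, did not pass (adjusted p = 0.1) and was named after its values were seen. Slc2a8 (0.88), an intracellular glucose transporter, and Pdk3 (1.02), a relative of Pdk1, were called in all 4 fits. Of 23 genes of glucose and lactate transport, 7 were higher (30.4%, against 10.6% of all genes) and 0 lower with all arrays. Without batch 1 replicate 2 there were 6 and 1, where 8.29% and 9.14% of all genes were called. In all 4 fits 5 were higher, as were 5.24% of all genes.

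Fewer genes of mitochondrial respiration were called higher when either of the arrays that stand apart was left out. Of 35 oxidative phosphorylation genes 8 were called higher (22.9%, against 10.6% of all genes) and 0 lower with all arrays. Without batch 1 replicate 2 there were 4 and 2 (median 0.017), where 8.29% and 9.14% of all genes were called. Without batch 3 replicate 1 there were 3 and 0, where 7.24% and 1.92% of all genes were called. The citric acid cycle had 5 of 20 higher (25%) and 0 lower with all arrays. It had 2 and 1 without batch 1 replicate 2 (median -0.014), and 2 and 0 without batch 3 replicate 1. Called in all 4 fits were the complex I subunit Ndufb10 (0.88), cytochrome c (Cycs, 0.64) and the cycle enzymes Idh3g (0.71) and Suclg1 (0.65). Cholesterol synthesis had 7 of 20 genes higher (35%, against 10.6% of all genes) and 0 lower with all arrays. It had 5 and 1 without batch 1 replicate 2, and 2 and 0 without batch 3 replicate 1. Its members Dhcr7, which completes cholesterol (1.09), and the transcription factor Srebf2 (0.97) were called in all 4 fits. Of 34 genes of the amino acid and integrated stress response, 0 were called in either direction with all arrays and 0 higher and 2 lower without replicate 2.

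**Figure D3:**
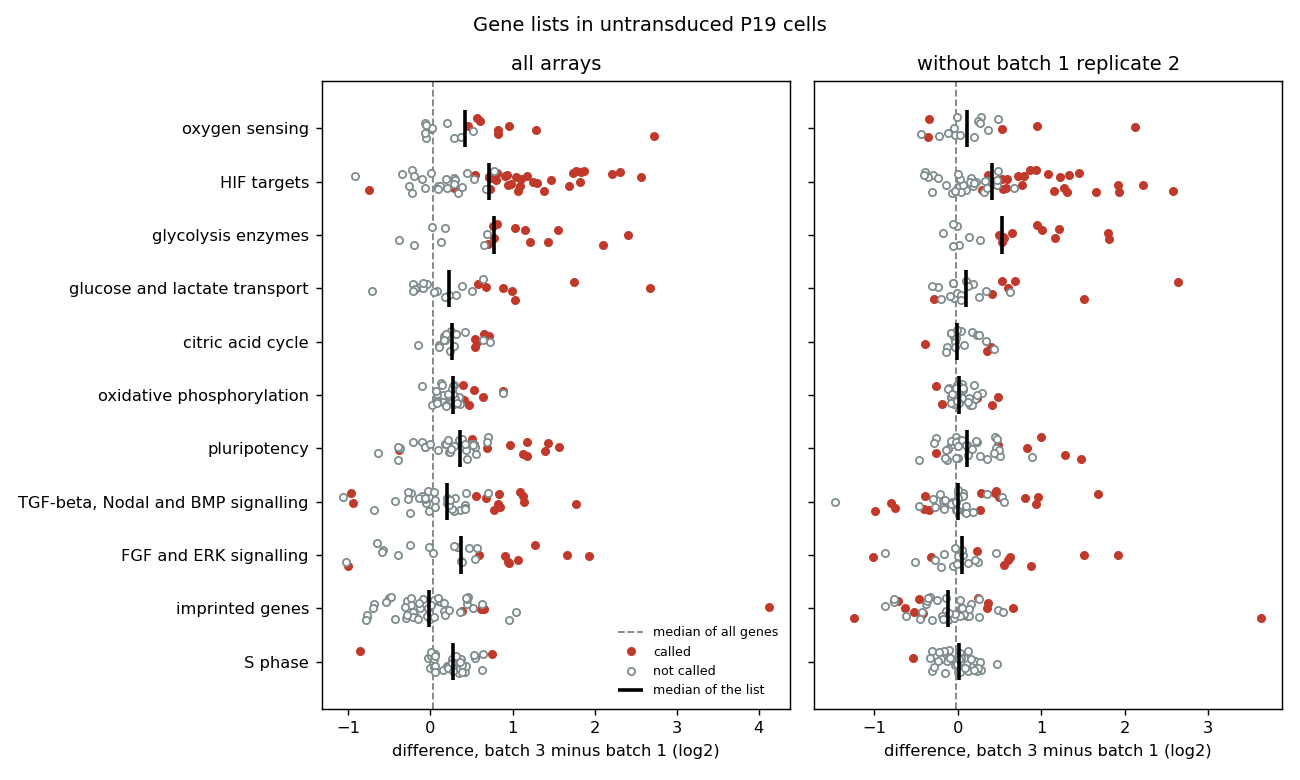
Log2 difference of batch 3 minus batch 1 (x axis) for the measured members of 11 gene lists, with all arrays (left) and without batch 1 replicate 2 (right). Filled points passed an adjusted p of 0.05, open points did not, black bars are list medians and the dashed line is the median of all genes. The medians of HIF targets and glycolysis enzymes lie at 0.72 and 0.77 on the left and at 0.41 and 0.53 on the right, while that of oxidative phosphorylation lies at 0.28 and 0.017.

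The same genes were set beside the transduced P19 cells of the same batches, which share no array with the untransduced ones. There NeuroD2 cells stand for batch 3 and MyoD cells for batch 1, so factor and batch cannot be told apart, and 1672 genes were called higher (9.19%) and 1350 lower (7.42%). Slc16a3 read 12.66, 11.92 and 11.92 in NeuroD2 cells of batch 3, against 8.78, 9 and 8.66 in MyoD cells of batch 1 (difference 3.36, adjusted p = 5.39e-11). Ankrd37 read 9.15, 7.95 and 8.01 in the NeuroD2 cells, against 5.57, 6.22 and 5.74 in the MyoD cells (2.53, adjusted p = 1.05e-06). For Ankrd37 replicate 1 was again the highest of the batch 3 arrays. The same held for Slc16a3 and Egln3, in untransduced and in NeuroD2 cells. Egln3 read 10.41, 9.31 and 9.43 in the NeuroD2 cells, against 7.76, 7.96 and 7.73 in the MyoD cells (1.90, adjusted p = 0.000384). Of the 42 members of the 4 oxygen and glucose lists called higher in all 4 fits of untransduced cells, 35 were also called higher and 0 lower between the transduced groups. The 7 not called higher there were Arnt, Kdm3a, Ero1a, Gys1, Tmem45a, Pfkm and Pdk3. Of the other 71 members 7 were higher and 9 lower between the transduced groups. Over the whole array, 496 of the 954 core genes that were higher (52.0%) were higher between the transduced groups too, which is 29.7% of the 1672, and 10 were lower. Of the 229 that were lower, 106 were lower there (46.3%), which is 7.85% of the 1350, and 11 were higher.

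**Figure D4:**
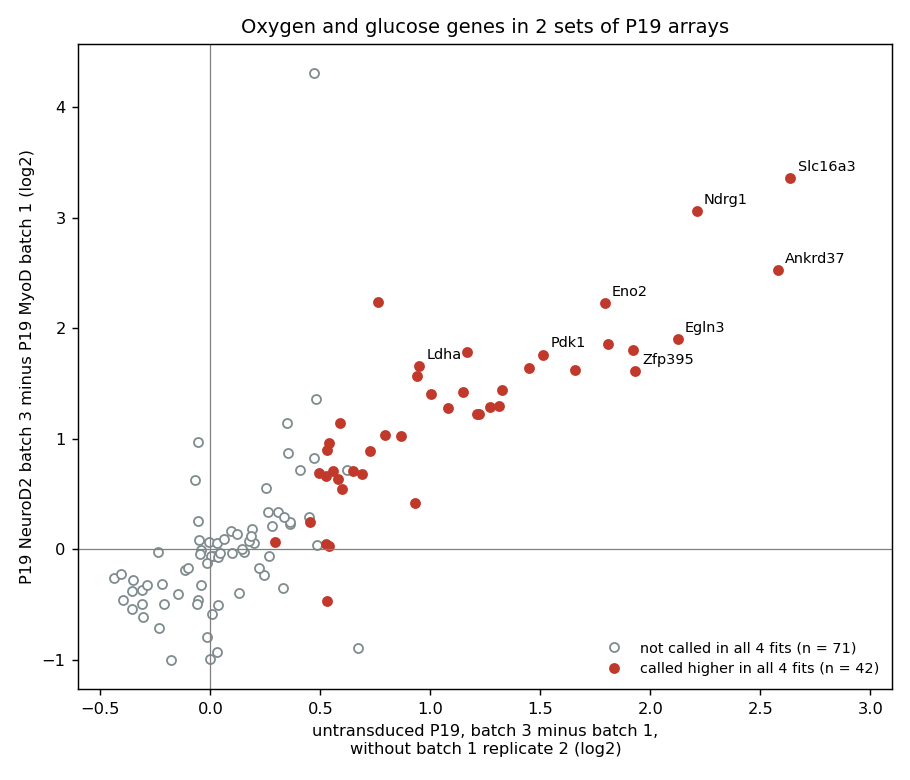
Each point is 1 of 113 genes of the 4 oxygen and glucose lists. The x axis is the log2 difference between untransduced P19 cells of batch 3 and batch 1 without batch 1 replicate 2, and the y axis is the log2 difference between P19 NeuroD2 cells of batch 3 and P19 MyoD cells of batch 1. Of the 42 filled points, called higher in all 4 fits, 41 lie above 0 on the y axis.

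The largest difference among the genes named here was that of Peg10, an imprinted gene of retrotransposon origin that is expressed from the paternal allele and needed for the placenta. Peg10 read 10.66, 9.79 and 10.64 in batch 3, against 6.72, 5.26 and 6.73 in batch 1, or 17.4-fold (difference 4.12 ± 0.30, adjusted p = 2.33e-08) and 12.4-fold without batch 1 replicate 2 (adjusted p = 9.57e-10). The groups lay more than 3 units apart, and the gap recurred between NeuroD2 cells of batch 3 (9.86, 10.10 and 10.46) and MyoD cells of batch 1 (6.67, 6.34 and 6.40). Sgce, its imprinted neighbour on chromosome 6, which was named after its values were seen, read 10.08, 10.45 and 10.51 in batch 3, against 10.72, 10.06 and 10.81 in batch 1. It did not pass with all arrays (-0.19, adjusted p = 0.349) and was called lower without replicate 2 (-0.42, adjusted p = 0.00417), but another Sgce probe set was called higher with all arrays (0.44, adjusted p = 0.0448). Of 48 imprinted genes, 4 were higher (8.33%, against 10.6% of all genes) and 0 lower with all arrays. Without replicate 2, 5 were higher and 7 lower, where 8.29% and 9.14% of all genes were called. Zfp57, a zinc finger protein that protects imprinted methylation, read 9.05, 8.56 and 9.46 in batch 3, against 6.62, 7.05 and 6.50 in batch 1 (2.30, adjusted p = 8.49e-07). Between the transduced groups Zfp57 differed by 1.01 (adjusted p = 0.00221).

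The other large rises covered a mixed set of genes, and all 12 that the naming rule picked were called in all 4 fits. Lbh, a transcription cofactor of limb bud and heart, read 8.73, 8.14 and 8.26 in batch 3, against 5.85, 4.82 and 5.96 in batch 1 (2.83, adjusted p = 5.06e-08). Its 2 other probe sets were not called. Psmc5, an ATPase of the proteasome cap, read 12.18, 11.73 and 11.88 in batch 3, against 9.85, 9.18 and 10.06 in batch 1 (2.23, adjusted p = 2.19e-08). Nrk, an X-linked kinase of the placenta, read 7.55, 8.03 and 8.25 in batch 3, against 5.94, 4.83 and 6.13 in batch 1 (2.31, adjusted p = 3.33e-06). For Lbh, Psmc5 and Nrk the groups did not overlap, which the naming rule required. The transduced groups differed by 2.87, 1.96 and 1.52 in these genes. Cpox, an enzyme of haem synthesis, differed by 2.35 with all arrays and 1.54 without batch 1 replicate 2. Dmrt1, a germ cell and testis regulator, behaved otherwise. It read 8.53, 6.63 and 6.84 in batch 3, against 4.88, 4.75 and 5.26 in batch 1 (2.37, adjusted p = 5.05e-05), but between the transduced groups its difference was -0.12 (adjusted p = 0.89). It was 4.69, 4.95 and 5.19 in the NeuroD2 cells.

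Falls were smaller, and 9 of the 12 largest were called in all 4 fits. Ankrd1, a cardiac ankyrin repeat protein and a target of mechanical signalling, read 5.34, 6.78 and 6.70 in batch 3, against 8.22, 8.88 and 8.45 in batch 1 (-2.24, adjusted p = 0.00257). Clu, the secreted chaperone clusterin, read 8.81, 9.82 and 9.98 in batch 3, against 11.24, 10.92 and 11.27 in batch 1 (-1.60, adjusted p = 0.00104), and its 3 other probe sets were also lower. Of the 23 other probe sets of these 12 genes, 7 were called the same way, 1 the opposite way and 15 were not called. In Ankrd1 and Clu replicate 1 was the lowest batch 3 array. Bche, butyrylcholinesterase, read 5.74, 5.90 and 5.88 in batch 3, against 7.002, 7.50 and 7.26 in batch 1 (-1.42, adjusted p = 4.99e-07), but its 2 other probe sets differed by 0.005 (adjusted p = 0.98) and -0.11 (adjusted p = 0.506). Eprn, a long non-coding RNA of early development, differed by -1.38, Scrn1, a secernin, by -1.36, Spef1, a cilium and flagellum protein, by -1.33, and the muscle giant Ttn by -1.68. Csdc2, Shh and Pik3cd owed their place to batch 1 replicate 2, which read 9.99, 9.83 and 12.65. Without it their differences moved to -0.65 and -0.48 for Csdc2 and Shh, both still called, and to -0.48 for Pik3cd (adjusted p = 0.103). Hoxb5os and Depp1 kept their calls at -0.72 and -0.71.

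The core pluripotency factors did not pass in all 4 fits. Pou5f1 differed by 0.43 (adjusted p = 0.0722) and Sox2 by 0.35 (adjusted p = 0.391), and Sox2 came to -0.087 without batch 1 replicate 2. Nanog passed narrowly with all arrays (1.13, adjusted p = 0.0481) and not without that array (0.47, adjusted p = 0.229). A few regulators around them were higher in all 4 fits. Foxd3, a repressor of early lineage choice, read 8.20, 8.40 and 8.29 in batch 3, against 6.96, 6.66 and 7.08 in batch 1 (1.40, adjusted p = 5.86e-05). Klf2, a Krüppel-like factor of the naive state, read 8.39, 8.61 and 8.65 in batch 3, against 7.03, 7.96 and 7.13 in batch 1 (1.18, and 1.47 without replicate 2). Nr0b1, an orphan receptor partner of Pou5f1, read 9.18, 9.27 and 9.42 in batch 3, against 8.29, 6.58 and 8.29 in batch 1 (1.57, and 1.00 without replicate 2). The batches did not overlap in any of the 3, again with no share of all genes to set beside this. Of 40 pluripotency genes, 9 were higher and 1 lower with all arrays (22.5% and 2.5%, against 10.6% and 3.48% of all genes). Without batch 1 replicate 2, 5 were higher and 1 lower (median 0.11), where 8.29% and 9.14% of all genes were called.

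Of 34 early mesoderm genes 2 were higher (5.88%, against 10.6% of all genes) and 0 lower with all arrays, namely Fgf8 and Cdx2, and 5 were higher and 1 lower without batch 1 replicate 2. Without batch 3 replicate 1, 4 were higher and 0 lower. Fgf8, a growth factor of the primitive streak, read 10.46, 8.05 and 8.29 in batch 3, against 7.002, 6.996 and 7.02 in batch 1. Its difference was 1.93 (adjusted p = 0.00409) with all arrays and 1.17 (adjusted p = 0.00675) without batch 3 replicate 1, which was far above the other arrays. Cdx2 was higher in all 4 fits (0.86, adjusted p = 0.00269). Eomes did not pass (0.58, adjusted p = 0.168), and T was not measured by a probe set of its own. Of 31 endoderm genes 4 were higher (12.9%, near the share of all genes) and 0 lower, with Gata6 (0.73, adjusted p = 0.0117) and Hhex (1.02, adjusted p = 0.00563) called in all 4 fits. Sox17 did not pass (-0.88, adjusted p = 0.115), and only batch 1 replicate 2 read it above 6 (8.11). Tfap2c, a trophoblast and germ cell factor, read 8.08, 7.39 and 7.25 in batch 3, against 6.07, 5.15 and 6.47 in batch 1 (1.68, adjusted p = 0.000234). With Peg10 and Cdx2 it made up the 3 of 24 placental genes that were called (12.5%, against 10.6% of all genes called higher). Without batch 1 replicate 2, 5 were called, where 8.29% of all genes were called higher.

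Neural genes went both ways. Of 36 progenitor genes 6 were higher and 5 lower with all arrays (16.7% and 13.9%, against 10.6% and 3.48% of all genes). Without batch 1 replicate 2, 4 were higher and 8 lower, where 8.29% and 9.14% of all genes were called. Without batch 3 replicate 1 there were 4 and 2. En1, a midbrain regulator, read 7.004, 6.40 and 6.41 in batch 3, against 4.998, 4.78 and 4.67 in batch 1 (1.79, adjusted p = 3.93e-06). Pax6, an eye and forebrain regulator, read 4.41, 4.50 and 4.76 in batch 3, against 5.54, 5.48 and 5.94 in batch 1 (-1.10, adjusted p = 0.00095), near the low end of the arrays' range. The forebrain factor Lhx2 read 6.31, 7.86 and 7.79 in batch 3, against 9.22, 7.22 and 9.34 in batch 1 (-1.28, adjusted p = 0.0368), and its call ended without batch 3 replicate 1 (-0.77, adjusted p = 0.168). En2, the partner of En1 (1.73), was called higher with all arrays but not in all 4 fits. Sox1 did not pass (-0.34, adjusted p = 0.317). Of 47 neuronal genes 3 were higher and 3 lower with all arrays (6.38% each), and 0 in either direction were called in all 4 fits. The synaptic vesicle sensor Syt1 (-1.26, adjusted p = 0.0405) lost its call without batch 3 replicate 1. Among retinoic acid genes, the receptor Rara was higher (1.08, adjusted p = 1.92e-05) and the retinoid-degrading Cyp26a1 lower with all arrays (-0.67, adjusted p = 0.0189) but not in all 4 fits. Hoxd1 rose by 1.54 (adjusted p = 0.00129). Of 33 Hox genes 5 were called higher (15.2%, against 10.6% of all genes) and 0 lower with all arrays, and 2 and 0 without batch 1 replicate 2.

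Several signalling genes differed with tight replicates. Lrp5, a Wnt co-receptor, read 8.48, 8.21 and 8.41 in batch 3, against 6.30, 6.10 and 6.24 in batch 1 (2.16 ± 0.11, adjusted p = 1.49e-10). Porcn, which lipidates Wnt ligands for secretion, was higher by 1.61 (adjusted p = 2.48e-05), Wnt5a by 0.98 (adjusted p = 0.0021), and Wnt1 was lower, with a difference of -1.09 (adjusted p = 0.00557). Of 40 Wnt genes 4 were higher and 3 lower with all arrays (10% and 7.5%, against 10.6% and 3.48% of all genes), and 5 and 6 without batch 1 replicate 2. Tgfb1, the growth factor, read 8.37, 8.63 and 8.74 in batch 3, against 6.87, 6.61 and 6.95 in batch 1 (1.77, adjusted p = 4.23e-08). The BMP-responsive inhibitors Id1 (1.14, adjusted p = 4.72e-06) and Id3 (1.12, adjusted p = 0.000332) and the receptor Acvr2b (1.09, adjusted p = 0.00095) were also higher in all 4 fits. Of 43 genes of the TGF-beta, Nodal and BMP pathways 10 were higher and 2 lower (23.3% and 4.65%, against 10.6% and 3.48% of all genes). Without batch 1 replicate 2, 9 were higher and 6 lower, where 8.29% and 9.14% of all genes were called. Without batch 3 replicate 1 there were 6 and 2. In the FGF and ERK group 8 of 24 genes were higher and 1 lower with all arrays (33.3% and 4.17%, against 10.6% and 3.48% of all genes). Without batch 1 replicate 2, 7 were higher and 2 lower, where 8.29% and 9.14% of all genes were called. The median of the group moved from 0.37 to 0.055 when that array was left out. Within the group the early response gene Ier3 differed by 1.67 (adjusted p = 0.000682) and the feedback inhibitor Spry2 by 1.06 (adjusted p = 0.00711) with all arrays. Egr1, an early growth response factor, was lower, at 8.58, 8.88 and 9.02 in batch 3, against 10.14, 9.33 and 10.13 in batch 1 (-1.04, adjusted p = 0.00137).

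Of 37 S phase genes 2 were higher and 1 lower with all arrays (5.41% and 2.7%, against 10.6% and 3.48% of all genes), and 0 and 1 without batch 1 replicate 2, when their median was 0.007. The 1 lower gene was the flap endonuclease Fen1 (-0.86, adjusted p = 0.00596). Of 35 genes of G2 and M phase 2 were higher (5.71%) and 0 lower with all arrays, and 1 and 3 without replicate 2. The cell cycle inhibitor Cdkn1b read 10.38, 10.32 and 10.45 in batch 3, against 9.47, 7.55 and 9.65 in batch 1 (1.49, and 0.82 without replicate 2, adjusted p = 0.000509). The unfolded protein response had 5 of 22 genes higher (22.7%, against 10.6% of all genes) and 0 lower with all arrays. It had 3 and 1 without batch 1 replicate 2, where 8.29% and 9.14% of all genes were called. The chaperones Dnajb9 (1.24) and Pdia4 (0.73) were called in all 4 fits. Among genes above the median level, medians per chromosome lay between -0.095 and 0.081 without replicate 2.

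Within batch 3, replicate 1 read far lower than the other untransduced arrays for a set of cytoskeletal and matrix genes. These genes were chosen after their values were seen, by their distance from replicates 2 and 3. Acta2, smooth muscle actin, read 7.60 in replicate 1, 12.66 and 12.74 in replicates 2 and 3 of batch 3, and 12.89, 12.33 and 12.79 in batch 1. Tagln, an actin-binding protein of the same cells, read 7.56, 12.39 and 12.46 in batch 3, against 12.58, 12.21 and 12.62 in batch 1. Anxa1, an annexin, read 4.78, 10.07 and 10.24 in batch 3, against 9.85, 9.16 and 10.08 in batch 1. Only replicate 1 was low in each case. Thbs1 (5.94, 9.72 and 9.75 in batch 3), Ahnak (5.48, 9.69 and 9.67) and Tgfb2 (5.25, 9.10 and 8.89) had the same shape. In the opposite direction, replicate 1 read higher than its partners for Fgf8, Dmrt1, the early embryo gene Dppa2 (9.09, 7.33 and 7.24 in batch 3, against 6.88, 5.35 and 7.11 in batch 1) and the Nodal inhibitor Lefty2 (7.69, 5.65 and 5.62 in batch 3, against 6.61, 6.51 and 5.90 in batch 1). Of 37 fibroblast and matrix genes 15 read over 2-fold lower in replicate 1 than in its partners (40.5%, against 2.76% of all genes) and 2 over 2-fold higher (5.41%, against 0.693%).

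The oxygen and glycolysis genes were read by the same measure. Of 18 genes of oxygen sensing and 18 glycolysis enzymes, 0 and 1 read over 2-fold lower in replicate 1 than in its partners, and 0 of each over 2-fold higher. Of 54 HIF targets 2 read lower and 2 higher (3.7% each). These shares were not below those of all genes for HIF targets or for the lower glycolysis enzymes (5.56%). The median level of the glycolysis list was 10.73, 11.35 and 11.39 in batch 3, against 10.66, 9.88 and 10.67 in batch 1, so that replicate 1 lay near replicates 1 and 3 of batch 1, while the median difference of its members from replicates 2 and 3 was 0.06. Without replicate 1 the glycolysis list had 13 members called higher and the HIF targets 25, where 7.24% of all genes were called higher.

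**Figure D5:**
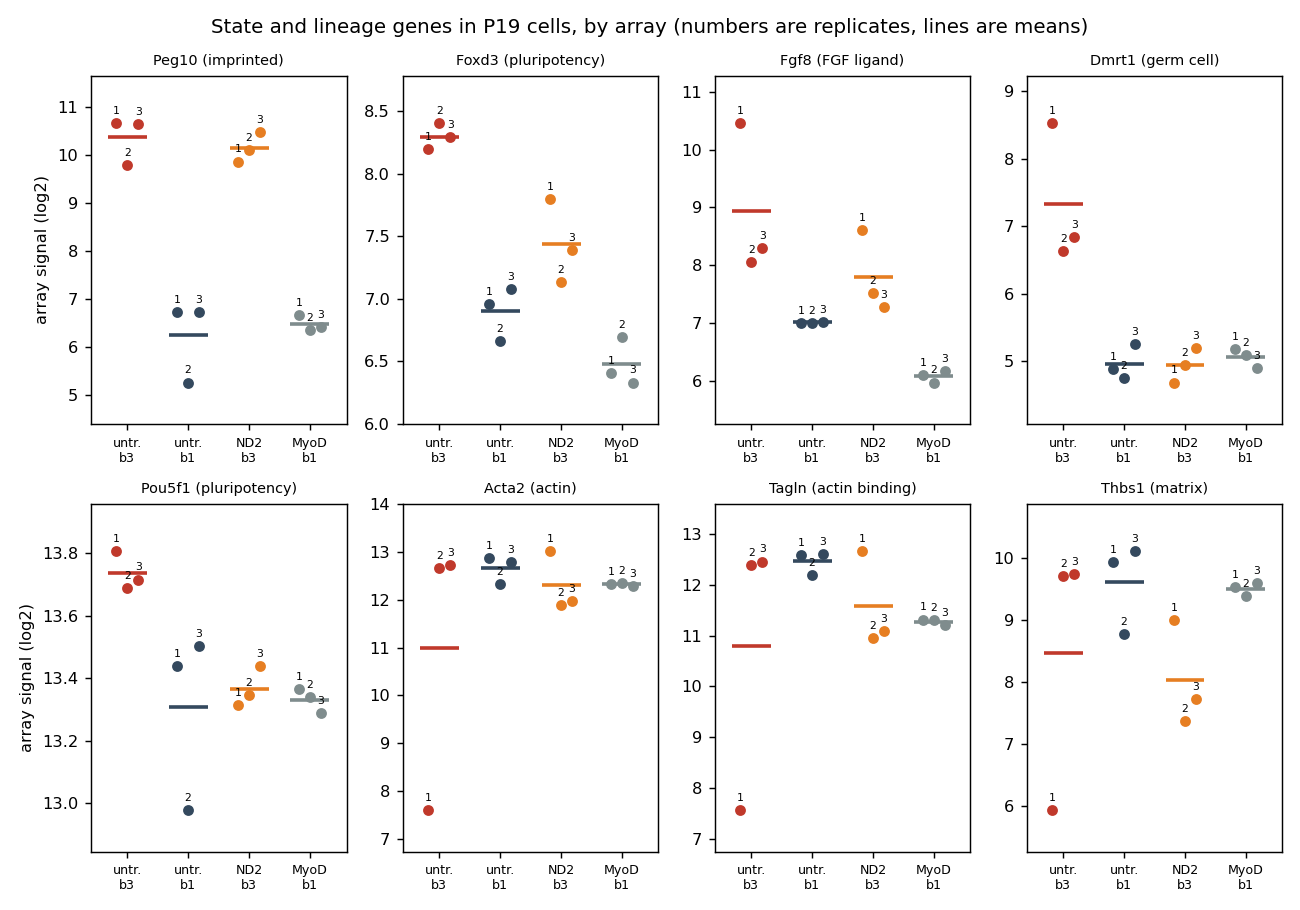
Log2 array signal (y axis) of 8 state and lineage genes in untransduced P19 cells of batch 3 and batch 1 and in P19 cells with NeuroD2 (ND2, batch 3) and MyoD (batch 1), with points for arrays marked by replicate and lines for group means. Peg10 and Foxd3 are higher in each of the 3 batch 3 arrays of untransduced cells, whereas Acta2, Tagln and Thbs1 are low in replicate 1 of batch 3 alone. Peg10 is among the largest rises, whose rule required that the groups lie apart.

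Markers of other cell types were read beside these results. The median of the fibroblast and matrix list was 6.33, 7.77 and 7.69 in batch 3, against 7.15, 7.11 and 7.22 in batch 1, and between 12.62 and 12.75 in the MEF controls of batch 1. Of its 37 genes 3 were higher and 1 lower with all arrays (8.11% and 2.7%, against 10.6% and 3.48% of all genes). Without batch 3 replicate 1 there were 7 and 0, where 7.24% and 1.92% of all genes were called. Without both arrays that stand apart there were 10 and 2, where 9.42% and 9.86% of all genes were called. Higher with all arrays were, among others, Twist1 (9.19, 7.77 and 7.69 in batch 3, against 6.40, 5.79 and 6.70 in batch 1) and Fbln1 (0.72, adjusted p = 0.000778). Muscle genes had 0 higher and 2 lower of 32 (6.25% lower), namely Ttn and Acta1 (-1.23, adjusted p = 0.0267). The medians of the muscle list lay between 5.20 and 5.69 in the 6 arrays. Endothelial markers had 0 higher and 1 lower of 15 (6.67% lower), and blood and macrophage markers 0 higher and 2 lower of 16 (12.5% lower). Of 20 epithelial genes 3 were higher (15%) and 0 lower. The tight junction gene Cldn6, known from early epithelium and embryonal carcinoma, read 8.29, 8.64 and 9.14 in batch 3, against 7.12, 6.65 and 7.18 in batch 1 (1.71, adjusted p = 1.72e-06). Cdh1 (1.60, adjusted p = 0.0345) lost its call without batch 1 replicate 2, and Jup (0.91, adjusted p = 0.00935) was called in all 4 fits. In such bulk RNA, fewer cells of a type and less RNA per cell cannot be told apart, and the part of other cells in the differences above was not tested.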

How the data were processed

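RNA of 24 samples was hybridised to Affymetrix mouse arrays, 1 array per sample, in 8 groups of 3. The deposited values are log2 signals per probe set that the authors had brought to a common scale, as judged from the quartiles, which lie close together in 23 of the 24 columns. The submitters' processing notes name limma, with no version. Of background removal and probe summary, no method is given in the sources used here. The table has no detection calls, so weak signals could not be told from background. The number of arrays limits the precision.

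Probe sets numbered 45101. Left out were 64 Affymetrix controls, 932 with more than 1 symbol and 9160 that the platform annotation did not name. From the other 34945, the brightest probe set on average stood for each of 18193 genes, with symbols updated through RefSeq. Group means were fitted to the 24 arrays together (limma 3.58.1, R 4.3.3, with 16 residual and 3.89 prior degrees of freedom). Tests were two-sided, with Benjamini-Hochberg adjustment over the genes. "Rose", "fell" and "called" refer to an adjusted p under 0.05, and errors are limma's standard errors. The fit was tested on simulated data.

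The 35 gene lists (1128 distinct genes, 995 measured) were described by counts and medians, with no test. They also covered heat shock, interferon, histone, ribosomal protein, p53 and metal and redox genes, of which 2 of 14, 3 of 30, 0 of 9, 2 of 43, 5 of 32 and 6 of 24 were called higher, and 0, 0, 0, 0, 1 and 0 lower. Of 28 retinoic acid genes 4 were higher and 1 lower, and of 28 immediate early genes 4 were higher and 2 lower. These counts are with all arrays, where 10.6% of all genes were called higher and 3.48% lower. Members, lists and alternatives were chosen with earlier results of these data known. The genes named were a fixed set of oxygen, glycolysis and lineage genes, up to 4 called members of each list (any called member of the 4 oxygen and glucose lists), and, by size, 12 rises and 12 falls. For these the arrays of batch 3 and batch 1 had to lie apart, and the brighter batch had to average over 7.03, the median gene value. Clone and predicted-gene symbols were passed over. Replicate numbers were not used as pairs. Deviations from the group means correlated at -0.134, -0.046 and 0.145 between same-numbered untransduced P19 arrays of batch 3 and batch 1. These deviations include those of both arrays that stand apart, and pairing within a batch was not examined.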

Additional observations from a re-analysis of the deposited data

How the results depend on the processing

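Leaving out 1 array at a time, the genes called higher in batch 3 numbered 1246 to 4651 and those called lower 330 to 2956, and the calls of HIF targets and glycolysis enzymes stayed within 1.5 times the full count. The balance of rises and falls turned without batch 1 replicate 2 (1508 and 1663), after quantile normalization again (1552 and 1590), with array weights, whose estimation stopped before it converged (3616 and 4162), and without both arrays that stand apart (1714 and 1793), an alternative chosen after seeing the data. Shifting the arrays to the same median gave 411 lower. With the 6 untransduced P19 arrays alone, 1 gene was higher and 0 lower, and 0 HIF targets and 0 glycolysis enzymes were called. With 5 of them (chosen after seeing the data) the counts were 152, 62, 14 and 5, and with 4 of them 1593 genes were lower. These fits have 4, 3 and 2 residual degrees of freedom. Without probe sets ending in _s_at, _x_at or _a_at, 4 glycolysis enzymes were called of 11 still measured. A fit with replicate number as a block gave 1898 higher and 588 lower. The comparison of transduced groups gave 3077 higher and 3396 lower without batch 1 replicate 2, which enters it only through the shared spread.

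Of 124 called genes named in the text, 86 kept their call in each of 14 alternatives other than the fits to P19 arrays alone, and 0 turned sign. Signs turned only for genes that were not called with all arrays. Hif1a (-0.006), Hk2 (-0.014), Sox1 (0.099), Sox2 (-0.087), Egln2 (-0.041) and Vegfa (-0.304) did so without batch 1 replicate 2, with the same values when the fit held 5 arrays alone. Without batch 3 replicate 1 Egln2 was at -0.015 and Vhl at 0.004, without both arrays Egln2 was at -0.067 and Vegfa at -0.246, and without batch 1 replicate 1 or 3 Vhl was at 0.063 and 0.092. Quantile normalization put Egln2 at -0.277, Hk2 at -0.054 and Vegfa at -0.219. Array weights put Egln2 at -0.122, Sox1 at 0.059 and Vegfa at -0.31, which was then called lower (adjusted p = 0.00508). Equal medians put Vhl at 0.007. Over all fits that left out 1 array, the ranges were -0.041 to 0.065 for Egln2, -0.006 to 0.431 for Hif1a, -0.014 to 0.32 for Hk2, -0.573 to 0.099 for Sox1, -0.087 to 0.706 for Sox2, -0.304 to 0.31 for Vegfa and -0.352 to 0.092 for Vhl. Sgce was at 0.125 with all probe sets averaged and at 0.436 by its other probe set. Except for the probe set filter, which leaves fewer genes to call, the cause was not tested. With 3 arrays per group and no detection calls, small differences of dim genes may go undetected.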
